A study of Mus musculus with 4 samples.

Results

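Of 8 cholesterol synthesis enzymes looked for in mouse embryonic fibroblasts (MEFs) on 4 oligonucleotide arrays of 2 colours, 7 were found (Dhcr7, Cyp51, Msmo1, Sqle, Lss, Fdft1 and Idi1), each as 1 spot per array, among 11554 genes with a symbol. They were found by the transcript accession or the name that the scanner tables give each spot, and no spot matched Hmgcs1, the cytosolic synthase that supplies HMG-CoA to the pathway. Each array set cells given Dlx3, a homeobox transcription factor, in the Cy5 channel against a control in the Cy3 channel. On the 2 stable arrays these were stable transfectants carrying a Dlx3 expressing plasmid and cells that received an empty plasmid. On the 2 transient arrays they were MEFs transfected with Dlx3 for 24 h and control MEFs, for which the labels mention no plasmid. By its label, 1 array of each pair is a biological repeat of the other, and the labels do not say whether the stable cells are 1 clone or a pool. The dyes ran the same way on every array, so any preference of a probe for 1 dye is part of every ratio given here.

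Cells build cholesterol from acetyl-CoA. The early enzymes make mevalonate and its isoprenoid products up to farnesyl diphosphate, the middle ones join and close these into lanosterol, and the late ones trim lanosterol to cholesterol. In most cells many genes of the pathway are switched on together by the transcription factor encoded by Srebf2 when membranes are short of sterol, through sterol regulatory elements that act beside boxes bound by NF-Y and Sp1.

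Values are log2 ratios of Dlx3 over control after loess normalization, so that 0 means equal signal and 1 means a doubling. A probe was called when its p, adjusted by Benjamini-Hochberg, was under 0.05 in a limma fit over all 14610 tested probes and both groups. In the stable group 5 of the 7 enzymes rose (Dhcr7, Cyp51, Msmo1, Sqle and Fdft1), none fell, and Lss and Idi1 did not pass. For comparison, 22.7% of all tested probes were called in the stable group, with 11.6% of all tested probes called higher and 11.1% lower. The median over the 7 enzymes was 0.52 in the stable group, beside 0.0066 over all tested probes. The enzymes were chosen with earlier results of these data known, so their counts and medians beside all probes are a description. In the transient group 0 of the 7 passed the limma test, with a background of 0.144% called. The unadjusted p was under 0.05 for 4 of the 7, beside 2958 of all 14610 tested probes. The transient median of the 7 was 0.21, beside 0.0012 over all tested probes.

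The promoters of the genes that rose, and of Idi1, which stood apart, are shown because members of this pathway share regulatory boxes. They are the 250 bases before the transcription start in RefSeq (build GRCm38.p6), written 5′ to 3′ on the strand of the gene. Capitals mark matches, on either strand, to the NF-Y box (CCAAT), the GC box bound by Sp1 (GGGCGG), the E-box (CACGTG) and the sterol regulatory element (TCACNCCAC). For Dhcr7 the third of its 3 starts is printed, chosen because it is the one that holds NF-Y boxes. The first and second starts hold none, and which start these cells use was not tested.
Cyp51 (chr5:4104698-4104947, minus strand): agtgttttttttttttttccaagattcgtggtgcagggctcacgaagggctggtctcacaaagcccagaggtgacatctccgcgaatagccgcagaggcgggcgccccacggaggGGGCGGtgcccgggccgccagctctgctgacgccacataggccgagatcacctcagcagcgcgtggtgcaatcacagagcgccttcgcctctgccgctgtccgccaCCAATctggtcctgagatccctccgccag
Msmo1 (chr8:64733579-64733828, minus strand): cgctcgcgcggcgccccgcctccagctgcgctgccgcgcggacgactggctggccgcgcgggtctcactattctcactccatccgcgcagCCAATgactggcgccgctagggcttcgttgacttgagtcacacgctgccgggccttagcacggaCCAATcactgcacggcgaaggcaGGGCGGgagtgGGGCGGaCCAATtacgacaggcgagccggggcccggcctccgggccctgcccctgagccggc
Dhcr7 (chr7:143829964-143830213, plus strand): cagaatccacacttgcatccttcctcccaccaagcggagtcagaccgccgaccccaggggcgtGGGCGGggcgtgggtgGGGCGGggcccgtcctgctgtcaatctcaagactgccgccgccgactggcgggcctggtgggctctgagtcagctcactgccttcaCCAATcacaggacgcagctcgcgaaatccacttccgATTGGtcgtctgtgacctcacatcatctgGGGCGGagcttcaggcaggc
Idi1 (chr13:8885356-8885605, plus strand): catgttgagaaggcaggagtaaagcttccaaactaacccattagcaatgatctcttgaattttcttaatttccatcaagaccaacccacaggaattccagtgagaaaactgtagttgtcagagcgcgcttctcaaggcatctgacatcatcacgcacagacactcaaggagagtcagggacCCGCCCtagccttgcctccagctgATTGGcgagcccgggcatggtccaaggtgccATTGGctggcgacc

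The RefSeq table gave a promoter for 6 of the 8 enzymes, 8 promoters in all with the 3 starts of Dhcr7, and none for Sqle and Fdft1. Over the full 300 bases of each entry, which reach 50 bases past the start, an NF-Y box was found in 6 of the 8 promoters and in 37.4% of the 32851 mouse promoters in the table. A GC box was found in 7 of the 8 and in 35.7% of all. Msmo1 held 3 NF-Y boxes and 2 GC boxes, and Idi1 held 2 NF-Y boxes and 1 GC box. The E-box was found only at the second start of Dhcr7, and in 7.15% of all promoters. The only match to the sterol regulatory element among these 8 promoters was in Hmgcs1, the enzyme that the arrays did not show, and 1.24% of all promoters hold one. These are matches of letters and are given as a description. NF-Y and GC boxes were found both in Idi1 and in genes that rose.

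The enzymes that take farnesyl diphosphate to lanosterol come first. Fdft1 encodes squalene synthase, which commits farnesyl diphosphate to sterols. Its log2 ratio was 0.33 and 0.41 in the stable pair of arrays and 0.17 and 0.26 in the transient pair. Both stable values lay above both transient values. The stable mean was 0.37 ± 0.056 (SD, n = 2), a 1.29-fold rise with an adjusted p of 0.0239 in limma. The call was lost when the second stable array was left out (0.33, adjusted p = 0.0657) or either transient array was (0.37, adjusted p = 0.0689). It was also lost with median centring (0.28, limma adjusted p = 0.0562) and in the authors' value table (0.29, limma adjusted p = 0.0640). The transient mean of 0.21 did not pass (adjusted p = 0.197).

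Sqle encodes squalene epoxidase, an oxygen-dependent step often called rate-limiting for the later pathway. Its log2 ratio was 0.19 and 0.65 in the stable pair of arrays and 0.07 and 0.13 in the transient pair. The second stable array was far above the other 3, and the first lay just above the transient arrays. The stable mean of 0.42 ± 0.323 (SD, n = 2), a 1.34-fold rise, passed the limma test narrowly with an adjusted p of 0.0490. Without the second stable array it was 0.19 with an adjusted p of 0.177, without either transient array 0.42 with an adjusted p of 0.0935, and it was called under 7 of 14 distinct alternative settings of the processing. The transient mean was 0.10 (adjusted p = 0.669).

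Lss encodes lanosterol synthase, which closes epoxidized squalene into lanosterol. Its ratio was 0.54 and 0.50 in the stable pair of arrays and 0.19 and 0.89 in the transient pair. The stable values lay inside the wide transient range. The stable mean was 0.52 ± 0.032 (SD, n = 2) and missed the limma threshold with an adjusted p of 0.0610, and the transient mean was 0.54 ± 0.49 (SD, n = 2; limma adjusted p = 0.148). Without either transient array the stable mean had an adjusted p of 0.0369. This spot was the dimmest of the 7, above background on 1 of 2 arrays in each group and on no array brighter than the 95th percentile of the randomized oligonucleotides, and its name came through a clone name.

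Cyp51, Msmo1 and Dhcr7 act after lanosterol. Cyp51 encodes lanosterol 14-alpha-demethylase, the cytochrome P450 that starts the trimming of lanosterol. Its log2 ratio was 0.30 and 1.00 in the stable pair of arrays and 0.00 and 0.07 in the transient pair. The groups did not overlap, and the second stable array was more than 3 times as far from 0 on this scale as the first. The stable mean was 0.65 ± 0.492 (SD, n = 2), a 1.57-fold rise with an adjusted p of 0.0353 in limma. Without the second stable array it was 0.30 with an adjusted p of 0.0745, and without either transient array the same mean had an adjusted p of 0.0616. The stable call was also lost with plain background subtraction (0.65, limma adjusted p = 0.0636) and in the authors' value table (0.48, limma adjusted p = 0.0624). The transient mean was 0.04 (adjusted p = 0.917) and turned to -0.14 with median centring and to -0.08 in the authors' value table.

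Msmo1 encodes the C4-methylsterol oxidase that removes the methyl groups of the sterol ring. Its log2 ratio was 0.57 and 0.50 in the stable pair of arrays and 0.10 and 0.17 in the transient pair. The stable arrays were close together and both well above the transient ones. The stable mean was 0.54 ± 0.049 (SD, n = 2), a 1.45-fold rise with an adjusted p of 0.0117 in limma, and it was called under all 14 alternative settings. The transient mean of 0.13 (adjusted p = 0.377) turned to -0.04 with median centring.

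Dhcr7 encodes 7-dehydrocholesterol reductase, the last step to cholesterol on the route through 7-dehydrocholesterol. Its log2 ratio was 0.49 and 0.84 in the stable pair of arrays and 0.32 and 0.39 in the transient pair. All 4 values were above 0, and both stable values lay above both transient values. The stable mean was 0.66 ± 0.249 (SD, n = 2), a 1.58-fold rise with an adjusted p of 0.0137 in limma, and it too was called under all 14 alternative settings. The transient mean was 0.35 ± 0.044 (SD, n = 2), which did not pass (adjusted p = 0.147) and was called under 2 of the 14 alternatives. The stable spot was dim on the first array, with 714 scanner units in the Dlx3 channel and 483 in the control channel, and read 1706 and 922 on the second. The 95th percentile of the randomized oligonucleotides, without background subtraction, was 1578 and 1654 on the first and 3187 and 5117 on the second. Of all 4 arrays, Dhcr7 was brighter than that percentile on 2 in the Dlx3 channel and on 1 in the control channel.

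Idi1 had opposite signs in the groups. It encodes the isopentenyl diphosphate isomerase that makes dimethylallyl diphosphate, an early step shared by all isoprenoids. Its log2 ratio was -0.18 and -0.21 in the stable pair of arrays and 0.44 and 0.44 in the transient pair. The sign was opposite between the groups on every array, and the arrays of a group were close together. Neither the stable mean of -0.20 ± 0.022 (SD, n = 2; limma adjusted p = 0.0980) nor the transient mean of 0.44 ± 0.0024 (SD, n = 2; limma adjusted p = 0.0709) passed. The transient mean was called under 4 of the 14 alternative settings and the stable mean under 1, and both signs held under all of them. The spot was named from its description alone.

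**Figure D1:**
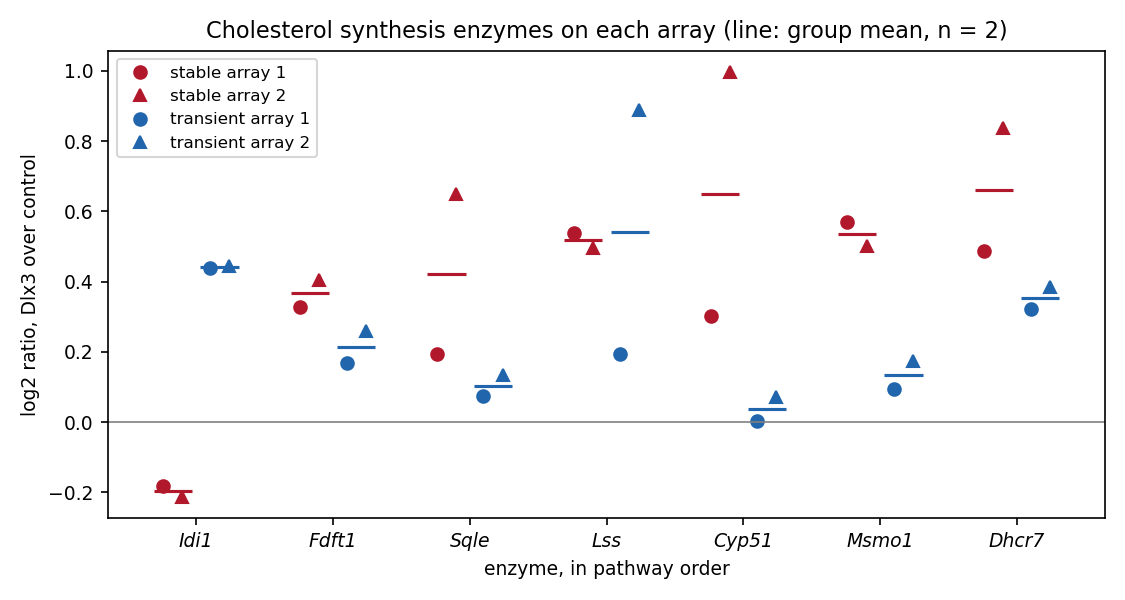
Log2 ratio of Dlx3 over control (vertical axis) of the 7 enzymes in pathway order (horizontal axis) on each of the 2 stable (red) and 2 transient (blue) arrays, with a line at each group mean. Idi1 lies below 0 on both stable arrays, at -0.18 and -0.21, while the other 6 lie above 0 on both, and Cyp51 and Sqle spread widely between the stable arrays.

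The signals behind these ratios were read as foreground minus local background. The Cyp51 spot gave 5625 scanner units in the Dlx3 channel and 4844 in the control channel on the first stable array. On the second it gave 18857 and 10797, so both channels were brighter there and the gap between them was wider. On the transient arrays the Cyp51 channels differed little, with 5455 against 6070 and 5551 against 5634 before normalization. The Idi1 spot read 1500 against 1752 and 2767 against 3368 in the stable pair and 7821 against 6451 and 7655 against 6005 in the transient pair, so the channel that was brighter changed between the groups before any normalization too. No enzyme spot had a saturated pixel, and none was marked as not found.

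**Figure D2:**
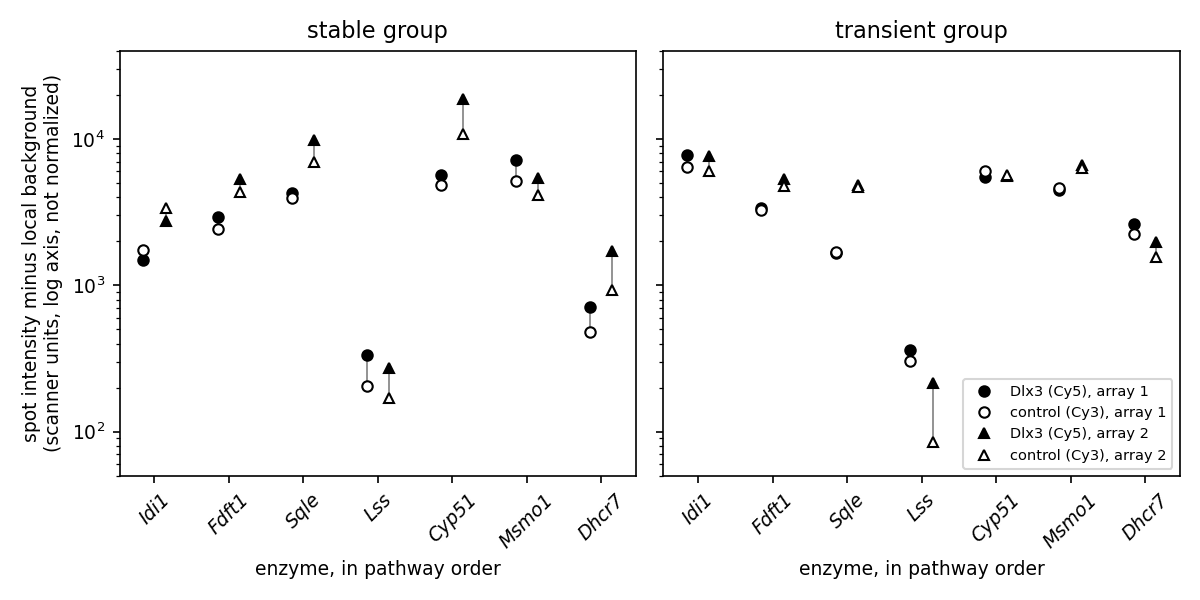
Intensity minus local background in scanner units, not normalized, on a log axis, for the Dlx3 channel (filled) and the control channel (open) of each array (circles for array 1, triangles for array 2) in the stable (left) and transient (right) group. The filled symbols lie above the open ones for 6 of the 7 enzymes on both stable arrays and below them for Idi1, while Lss is the dimmest spot in both groups.

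Whether the groups differed was tested as the stable minus the transient mean in the same fit. Of the 7 enzymes 0 passed the limma test, beside 0.24% of all tested probes. The unadjusted p was under 0.05 for 3 of the 7, beside 2852 of all 14610 tested probes. Idi1 had the largest difference, at -0.64 with a 95% interval from -0.89 to -0.39 and an adjusted p of 0.0947. Cyp51 followed at 0.61 (0.07 to 1.15; adjusted p = 0.225) and Msmo1 at 0.40 (0.14 to 0.66; adjusted p = 0.168). The intervals of Dhcr7 (-0.04 to 0.66), Sqle (-0.09 to 0.72), Fdft1 (-0.11 to 0.41) and Lss (-0.56 to 0.52) included 0. The intervals are those of each enzyme alone, with no adjustment over probes. A rise in the stable group beside none called in the transient group is therefore not shown to be a difference between the groups for any of these enzymes.

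**Figure D3:**
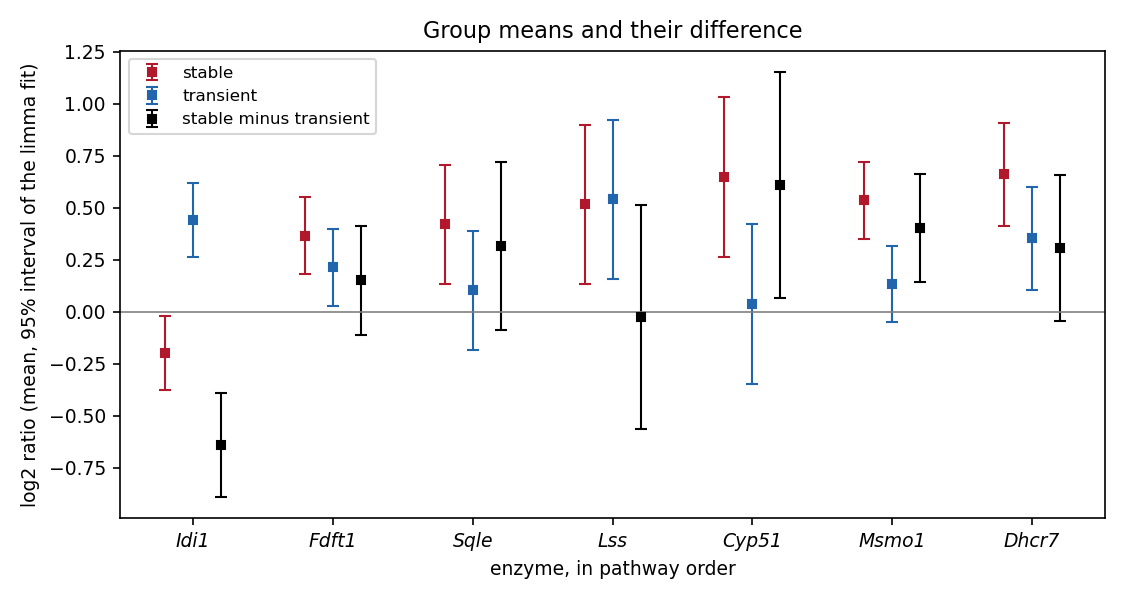
Mean log2 ratio of each enzyme in the stable group (red), the transient group (blue) and their difference, stable minus transient (black), with 95% intervals from the limma fit of 4 arrays, not adjusted over probes. The interval of the difference lies wholly below 0 for Idi1 and wholly above 0 for Cyp51 and Msmo1, yet none of the 3 passed after adjustment.

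The other enzymes of the pathway that are reported here gave no call. Of 11 on the list 10 were tested, and in the stable group 0 of the 10 were called in limma at their brightest probe (22.7% of all tested probes were called). The unadjusted limma p was under 0.05 for 4 of the 10, beside 5841 of all 14610 tested probes. The stable median of the 10 was 0.03 and their transient median 0.16. The largest of them by size were Pmvk, phosphomevalonate kinase, at -0.09 and -0.45 (mean -0.27, limma adjusted p = 0.103), on a dim spot of 114 to 183 scanner units there, marked as not found on 2 arrays and at -0.02 with print-tip loess, and Nsdhl, a sterol dehydrogenase that acts beside Msmo1, at 0.20 and 0.22 (mean 0.21, adjusted p = 0.0856).

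In pathway order, a grouping made after the values were seen, 0 of the 5 enzymes tested from mevalonate to farnesyl diphosphate were called in the stable group, 2 of the 3 from there to lanosterol, and 3 of the 9 from lanosterol to cholesterol, all 5 higher, beside 11.6% of all tested probes called higher and 22.7% called either way. The stable medians of these stretches were 0.06, 0.42 and 0.20, and the transient medians were 0.23, 0.21 and 0.16, with 0 of 17 enzymes called in limma. The 5 called enzymes are all among those chosen with earlier results of these data in view, so the split between them and the rest is a description.

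**Figure D4:**
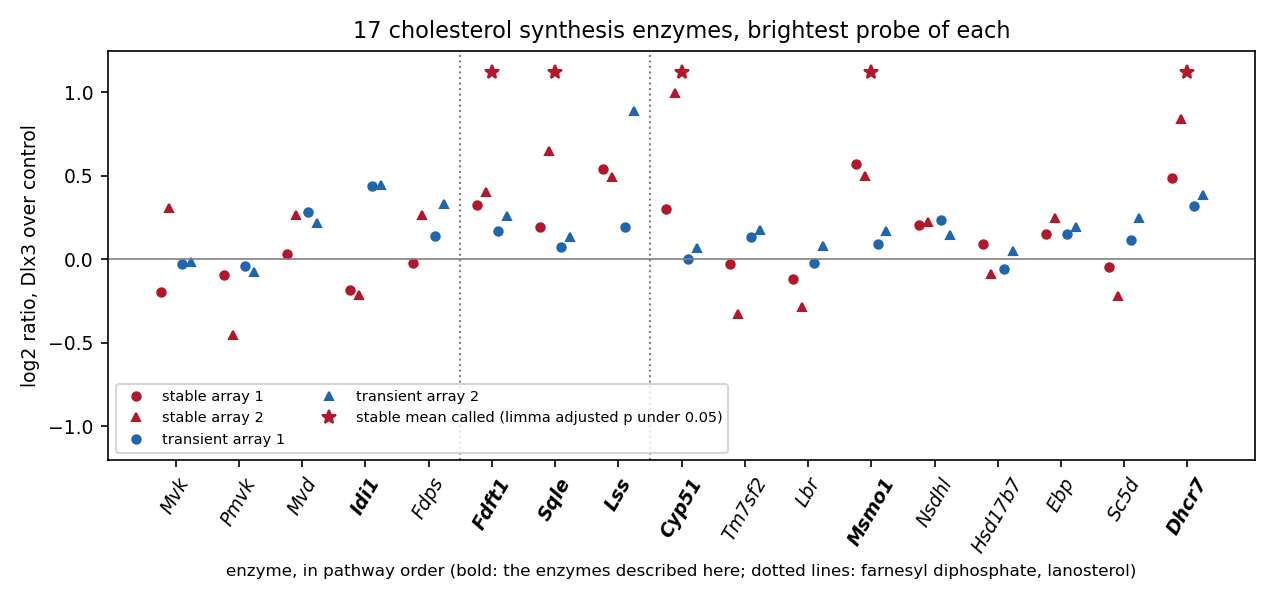
Log2 ratio of Dlx3 over control (vertical axis) of 17 cholesterol synthesis enzymes, in pathway order (horizontal axis), on the 2 stable (red) and 2 transient (blue) arrays, with a star over those called in the stable group. The 5 stars all fall after farnesyl diphosphate, over Fdft1, Sqle, Cyp51, Msmo1 and Dhcr7, and the stable means of the others, Lss aside, lie between -0.27 and 0.21.

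Of 4 tested genes that sense or regulate sterol uptake and synthesis, 3 rose in the stable group and none fell, with a median of 0.30 (11.6% of all tested probes were called higher). They were Srebf2, which encodes the sterol-responsive factor itself (0.21 and 0.41; mean 0.31, limma adjusted p = 0.0467), Srebf1, its relative that acts mainly on fatty acid genes (mean 0.30, adjusted p = 0.0382), and Mbtps1, the protease that makes the first cut in both (mean 0.28, adjusted p = 0.0449). These calls were near the threshold, and they were made under 7, 7 and 5 of 14 alternatives. Without the second stable array Srebf2 was at 0.21, Srebf1 at 0.27 and Mbtps1 at 0.33, and none of these calls held. Without the first, Mbtps1 was at 0.23 and its call was lost too. Mylip, which marks lipoprotein receptors for breakdown, had the largest stable mean of the list at 0.33, from values of 0.03 and 0.62, and did not pass (adjusted p = 0.144).

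Among genes of cholesterol efflux, storage and trafficking, 7 of 15 tested rose in the stable group and none fell, with a median of 0.28, beside 11.6% of all tested probes called higher. The 7 included proteins that bring in or release cholesterol inside the cell. Lrp1, an endocytic lipoprotein receptor, read 0.92 and 0.59 (mean 0.76, limma adjusted p = 0.0105). Lipa, the lysosomal acid lipase that frees cholesterol from its esters, read 0.77 and 0.50 (mean 0.63, adjusted p = 0.0119). Both were called under all 14 alternatives. Scarb1, the HDL receptor, read 0.32 and 0.86 (mean 0.59, adjusted p = 0.0282), and leaving out stable array 2 gave an adjusted p of 0.0656. Npc1 read 0.23 and 0.69 (mean 0.46, adjusted p = 0.0405), and leaving that array out gave 0.23 with an adjusted p of 0.132. Npc1 and Npc2 (mean 0.50, adjusted p = 0.0180), which export cholesterol from lysosomes, both rose. So did Nr1h2, a nuclear receptor for oxysterols (mean 0.45, adjusted p = 0.0147), and Soat1, which esterifies cholesterol for storage (mean 0.28, adjusted p = 0.0433). Abca1, the main exporter of cellular cholesterol, read 0.34 and -0.26 on the stable arrays, with a mean of 0.04 (adjusted p = 0.868). Nr1h2 was called under all 13 alternatives that gave it a value, Npc2 under 13 of 14, Scarb1 under 11 of 14, Npc1 under 10 of 13 and Soat1 under 7 of 14. Npc1 was on no array brighter than the 95th percentile of the randomized oligonucleotides, and Nr1h2 on 1 array in each channel.

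Of 11 tested genes of fatty acid synthesis, desaturation and related lipid handling, 4 rose in the stable group and none fell, with a median of 0.11 (11.6% of all tested probes were called higher). Fads1, a fatty acid desaturase, led with 0.52 and 0.68 (mean 0.60, limma adjusted p = 0.0103). Pnpla3 (mean 0.37, adjusted p = 0.0405), the desaturase Fads2 (mean 0.32, adjusted p = 0.0460) and the desaturase Scd2 (mean 0.30, adjusted p = 0.0427) passed more narrowly. Fads1 was called under all 14 alternatives, and these 3 under 7, 6 and 5. Without the second stable array, Pnpla3 was at 0.25 (adjusted p = 0.156), Fads2 at 0.22 (adjusted p = 0.160) and Scd2 at 0.34 (adjusted p = 0.0662). The other 7 did not pass, among them Fasn, the fatty acid synthase, with a mean of 0.01 (adjusted p = 0.971). In the isoprenoid branch, which uses the same precursors for other products, 3 of 7 tested genes fell in the stable group and none rose, beside 11.1% of all tested probes called lower. Pdss1 read -0.78 and -0.76 (mean -0.77, limma adjusted p = 0.00714) and Coq2 read -0.46 and -0.68 (mean -0.57, adjusted p = 0.0129), and both act in the making of coenzyme Q. Their transient means were close, at -0.53 for Pdss1 (adjusted p = 0.0689) and -0.59 for Coq2 (adjusted p = 0.0651), and neither passed. Stable minus transient was -0.24 for Pdss1 (adjusted p = 0.302) and 0.03 for Coq2 (adjusted p = 0.915). Fnta, a subunit of protein prenyltransferases, had a mean of -0.39 (adjusted p = 0.0225). Pdss1 and Fnta were on no array brighter than the 95th percentile of the randomized oligonucleotides, and Coq2 on 1, in the control channel only. In the transient group and in the difference between groups, 0 genes of these lists were called in limma. The unadjusted p was under 0.05 in the transient group for 1 of 4 sensing, 4 of 15 trafficking, 2 of 11 fatty acid and 2 of 7 isoprenoid genes. Over all tested probes it was under 0.05 for 2958 of 14610 in that group.

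The 5 genes outside all lists with a profile nearest to the mean of the 7 enzymes, out of 10304 candidates, were Tmem19, Lgals9, Gem, Fzd5 and Tbc1d23. Nearness was the Euclidean distance over the 4 log2 ratios and ran from 0.0495 for Tmem19 to 0.0854 for Tbc1d23. The members themselves lay from 0.143 for Fdft1 to 0.933 for Idi1 from their own mean, so that mean describes Idi1 least closely. The 5 genes were picked as the nearest of all candidates. That they lie nearer than the members follows from this choice and is not a result.

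Some facts of the arrays touch these results. On single arrays 6, 6, 7 and 7 of the 7 enzymes were above 0 (both stable, then both transient arrays), while 49.5 to 51.0% of all tested probes were. The SD of the log2 ratios over the randomized spots was 0.21 and 0.32 on the stable and 0.26 and 0.33 on the transient arrays. Over all tested probes it was 0.31 and 0.36, then 0.23 and 0.22. On both transient arrays the randomized spots thus spread more than the tested probes. Across probes, log2 ratios correlated at 0.637 within the stable pair and 0.636 within the transient pair of arrays, and at 0.332 to 0.376 between arrays of different groups, all with the same dye orientation. The Dlx3 probe itself read 0.06 and 0.23 in the stable pair and 0.14 and 0.56 in the transient pair and was called in neither group (limma adjusted p = 0.396 and 0.179), so it does not check the labels. Over the whole array 3319 probes were called in the stable group and 21 in the transient group (14 higher, 7 lower), where median centring called 142 higher and 503 lower. Most fibroblast markers were bright, with 5 of 8 matched genes above the randomized oligonucleotides on every array and summed signals of 147925 to 200407 scanner units, which saturation limits, since the Col1a1, Col1a2 and Vim spots reached 98, 83 and 91% saturated pixels. Pdgfra and Thy1 were above the randomized oligonucleotides on no array. Col3a1 was above background on no array and was not tested. Of the 7 fibroblast genes tested, Pdgfra rose in the stable group (mean 0.98, limma adjusted p = 0.00428), S100a4 fell (mean -0.63, adjusted p = 0.0132) and 5 did not pass. Beside this and the marker counts that follow, 22.7% of all tested probes were called in the stable group. The unadjusted limma p was under 0.05 there for 5841 of 14610 probes. Of the macrophage list 0 of 4 tested genes were called in the stable group, with 1 unadjusted p under 0.05, and the summed Dlx3-channel signal was 4849 and 5352 scanner units on the stable and 956 and 1962 on the transient arrays. On the first stable array 2 of these 4 were above the randomized oligonucleotides, and on each of the other arrays 0 were. Of the adipocyte list, whose cells also handle much lipid, 1 of 4 matched genes passed the filter, Pparg, with a stable mean of -0.44 (limma adjusted p = 0.0396). Their summed Dlx3-channel signal was 949 and 855 on the stable and 107 and 246 on the transient arrays. Of 6 epithelial genes tested 1 was called in the stable group (22.7% of all tested probes were). It was Krt5, at a mean of 0.46 (limma adjusted p = 0.0296), with a list median of -0.01. Of the endothelial and hepatocyte lists 0 of 3 tested genes each were called in the stable group, with 1 unadjusted p under 0.05 in each, and Kdr, an endothelial receptor, was brighter than the randomized oligonucleotides on all 4 arrays. The part of other cells in the enzymes' ratios was not tested, and in bulk RNA a change in the share of cells of a type and a change in RNA per cell cannot be told apart.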

How the data were processed

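The 4 deposited scanner tables give spot and local background intensity, per the file headers, for 17664 spots at 635 nm (Cy5) and 532 nm (Cy3), read with GenePix Pro 5.0.0.49 and not normalized. They also hold the percent of saturated pixels and a flag score, both per the file headers. The authors' value table is a signed score per spot that followed minus the linear ratio of control over Dlx3 (correlation with the scanner log2 ratio 0.862 to 0.957; column medians -1.001, -1.007, -1.002 and -1.002). Its centring and scale are not given in the sources used here, and it served as an alternative. Per the labels' protocols, total RNA came from RNeasy columns and was labelled by the aminoallyl method.

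Background was corrected by normexp (offset 50) in limma 3.58.1 (R 4.3.3) and each array normalized by global loess. The 1009 control spots and spots marked bad were left out. A probe was tested when either channel stood over the local background by 2 of its SDs on 2 or more of the 4 arrays, and all 7 enzymes passed. On single arrays 54.2 and 52.6% (stable) and 28.6 and 43.2% (transient) of the randomized oligonucleotide spots also stood over background by this rule. For the other spots it was 86.9 and 87.2%, then 77.3 and 80.9%. Passing the filter is therefore weak evidence that a gene was expressed. 1 mean per group was fitted over the 4 arrays (2 residual degrees of freedom), two-sided, with Benjamini-Hochberg adjustment over 14610 probes. The script was tested on simulated data. Array number limits the precision, and the p-values measure the spread between these arrays.

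Probes were named by RefSeq accession (6678 of 16463), clone name (5775) or description (23), through a RefSeq gene table of assembly GRCm38.p6, and 3987 stayed unnamed. A gene with several probes is read at its brightest. The members and lists were chosen with earlier results of these data known. Named were all members, every called gene of the other sterol lists and the 2 genes of each list with the largest stable mean. Abca1, Fasn, Krt5, Pparg, Kdr, Pdgfra, S100a4, Thy1, Col1a1, Col1a2, Col3a1 and Vim were named after their values were seen. Alternatives covered background, normalization, filter, flags, value source, fit and left-out arrays. Some genes of these lists are not reported here.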

Additional observations from a re-analysis of the deposited data

Results flagged for a closer look

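Idi1 had log2 ratios of Dlx3 over control of opposite sign in the groups on every array. They were -0.18 and -0.21 on the stable and 0.44 and 0.44 on the transient arrays. The share of all tested probes with this pattern, or with groups that do not overlap, was not counted. Both patterns are given as a description of single enzymes. The difference of Idi1, stable minus transient, was -0.638. It was tested in the limma fit and did not pass (adjusted p = 0.0947 over all tested probes), and it kept its sign under all 15 alternatives, from -0.69 to -0.51, with adjusted p-values from 0.0341 to 0.545. Groups of 2 arrays are too small for a search for outlying arrays.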

How the results depend on the processing

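Leaving out an array of the other group gives the same fit as the group alone and is counted once, which left 14 distinct alternatives for each group and 15 for the difference. Under them all stable ratios of the 7 enzymes kept their sign. Dhcr7 and Msmo1 were called under all 14, Cyp51 and Fdft1 under 10, Sqle under 7, Lss under 4 of the 12 that gave it a value, and Idi1, as lower, under 1. The count of 5 enzymes called in the stable group was 3 with plain background subtraction, 3 in the authors' value table and 3 with the group fitted alone, and 2 to 5 when an array was left out, with 2 (Dhcr7 and Msmo1) without the second stable array and 3 (those and Lss) without either transient array. In the transient group, where 0 were called, scaling between arrays and fitting the group alone each called 2, both stricter filters on dim probes called 1, and leaving out an array called 0 to 2. For the difference, leaving out an array called 0 to 3 (3 without the first stable array). Leaving out an array changes the spread as well as the mean, and a lone array is assumed to vary like the other group.

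Of all tested probes, the stable count of 3319 was 2071 with plain subtraction, 2131 with scaling, 1324 with the filter on randomized oligonucleotides, which tests fewer probes, and 1226 with the group alone, and 1226 to 4349 with an array left out. The transient count of 21 was 0 with plain subtraction (3029 at an unadjusted p under 0.05), 42 with no subtraction, 645 with median centring, 1400 with scaling, 12 with no filter, 180 with both channels above background, 103 with the randomized filter, 223 in the authors' table and 1288 with the group alone, and 3 to 1288 with an array left out. The difference count of 35 was 0 with plain subtraction (2493 at an unadjusted p under 0.05), 88 with median centring and 12 with the randomized filter, and 3 to 1344 with an array left out. The cause was not tested.

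Reversed signs, none of them called, were found with median centring for the transient means of Cyp51 (-0.135), Msmo1 (-0.035) and Sqle (-0.030), and in the authors' table for Cyp51 (-0.082). For the Lss difference they were found in the authors' table (0.025) and without the second transient array (0.323, against -0.370 without the first). The same alternatives were run, after seeing the data, for the other list genes named. Lrp1, Lipa and Fads1 were called under all 14, while Srebf1 and Srebf2 were called under 7 and Mbtps1 under 5. No paired analysis was possible because the labels give the arrays no replicate numbers shared between the groups. Lss, whose spot was above background on 1 of 2 arrays in each group, had the dimmest spot of the 7.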
